A study of Mus musculus with 12 samples.

Results

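The genes described here are 36 markers of blood and lymph vessel endothelium, the cell layer that lines vessels. They were taken from a list of symbols chosen with earlier results of these data known. Their counts and medians beside those of all genes are therefore descriptions. All 36 were found among the 54532 genes of the E14.5 table. RNA had been sequenced from fluorescence-sorted limb cells of mouse embryos at E14.5. In the 6 iCreb5 libraries, Cre driven by a Prrx1 limb enhancer had switched on an HA-tagged bovine Creb5 followed by GFP at the Rosa26 locus. In the 6 tdTomato libraries the same Cre had switched on the red fluorescent protein tdTomato at Rosa26 instead. All embryos therefore carried Prrx1-Cre and a Rosa26 transgene that needs Cre to be expressed, and the cells were sorted by the fluorescence that Cre switches on. How pure the sorted cells were was not tested, and transcripts of red cells and leukocytes were present in all libraries. The Cre is active in limb mesenchyme and so sets which cells carry the transgene. The sources used here do not give whether embryos were pooled for a library, and the p-values below measure the spread between libraries. Title numbers and batch labels divide the libraries into 4 sets, called litters here. Litter 3 holds 3 libraries of each group and litters 4, 5 and 6 hold 1 of each. The design text speaks of 6 litters, so whether litter 3 is a single litter is not known, and all results by litter rest on these labels. Litter and batch label coincide and cannot be told apart.

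Endothelial cells receive their main growth signal through the VEGF receptors and are stabilised by the angiopoietin receptor Tek and its relative Tie1. Neighbouring cells are held together by the junction proteins VE-cadherin, PECAM1 and claudin 5, and Sox17, Sox7 and Sox18 are among the transcription factors that set arterial, venous and lymphatic character. Limb vessels are formed largely by cells that migrate in from the somites, whereas the Prrx1 enhancer is active in limb mesenchyme of lateral plate origin. Several of the markers are not exclusive to endothelium. Lyve1 is also made by some tissue macrophages, and Pecam1, Icam2 and Cd93 are also made by leukocytes.

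Recovered depth ran from 21.6 to 49.2 M reads per iCreb5 library and from 9.02 to 53.3 M reads per tdTomato library (M for 1000000). Values are deposited normalised read counts, that is, reads scaled by 1 factor per library, so that 3 reads corresponded to 1.48 to 8.38 units. *Creb5* itself averaged 2799 ± 214 units in iCreb5 and 1803 ± 299 units in tdTomato (SD, n = 6), a log2 change of 0.65 (limma, adjusted p = 0.00219). Limb mesenchyme markers were abundant in both groups. The 10 limb mesenchyme markers summed to between 250797 and 402398 normalised counts in iCreb5 and between 249195 and 483892 in tdTomato, while the 36 vessel genes together reached at most 11076 in any library. Among these 10 mesenchyme markers 1 passed the test, the hindlimb transcription factor gene *Tbx4*, chosen here after its values were seen, with a log2 change of 0.54 (adjusted p = 0.033). With litter as a replicate block *Msx1* was also lower (log2 change -0.60, adjusted p = 0.0386). The *Tbx4* call did not hold without iCreb5 3a, 3b, 3c or 4a, or tdTomato 4a, 5b or 6d (adjusted p up to 0.0826).

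As a group the vessel genes were higher in iCreb5 cells. Of the 36 genes, 34 reached a value of 10 in 6 or more libraries and were tested, and 15 of these 34 were higher in iCreb5 at an adjusted p under 0.05. None was lower, by limma, edgeR or DESeq2, and 0 were lower at an unadjusted p under 0.05 (share of all genes not given). By edgeR 17 were higher (3.83% of all genes) and by DESeq2 18 (5.51% of all genes). Across all 16733 genes tested, 3.87% were called higher and 2.85% lower. The median log2 change of the 34 genes was 1.22, beside 0.00 for all genes, and 32 of the 34 had a positive change. These figures include 6 genes that reached the minimum value through the iCreb5 libraries alone, and 1 of the 6, *Flt4*, is among the 15 called. The spread between libraries within a group was also wide, with a median residual SD of 0.704 on the log2 scale for the 34 genes and 0.350 for all genes. In bulk RNA, more endothelial cells among the sorted cells and more vessel transcript per cell cannot be told apart. With litter as a replicate block, 17 vessel genes were higher, beside 5.13% of all genes, and none of the 15 was lost. When the litter 3 libraries of each group were first averaged in that block, 8 of the 15 were called and *Cd93*, *Cdh5*, *Flt4*, *Kdr*, *Mmrn2*, *Nos3* and *Tie1* were not. Over all genes the averaged block called 511 higher, beside 648 in the main fit and 859 in the block without averaging.

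The number of vessel genes called depended on single libraries. The median log2 change was positive in every one of 26 alternative settings, between 0.76 and 1.69. The count was 5 without iCreb5 3b or iCreb5 6, 7 without iCreb5 3c, and 8 without iCreb5 3a, tdTomato 3a or tdTomato 3b. Over all genes tested, 484, 539, 517, 491, 567 and 569 were called higher without these libraries, in that order. With none left out it was 648. The vessel count was 18 without iCreb5 5, where 705 of all genes were called higher. *Lyve1*, *Plvap* and *Pecam1* were past the threshold in all 26 settings, and *Icam2* and *Tek* each missed it in 1, litters 4 to 6 alone.

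**Figure D1:**
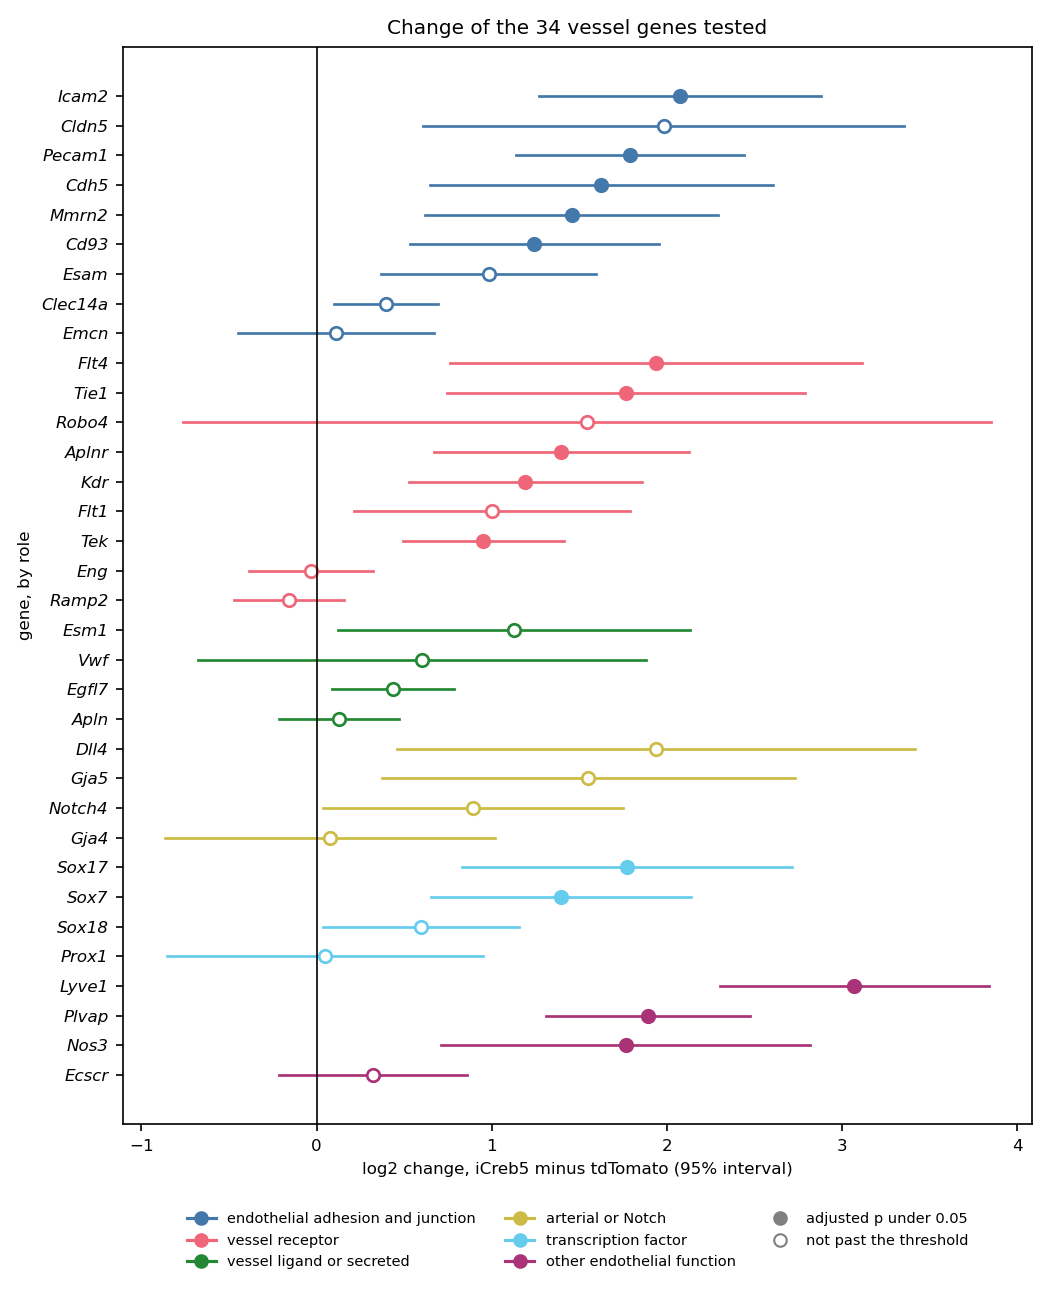
Log2 change (iCreb5 minus tdTomato, limma on log2 of value + 1) of the 34 vessel genes tested, grouped by role, with 95% intervals; filled points have an adjusted p under 0.05. The 15 filled points all lie right of 0, and only *Eng*, which turned positive with libraries rescaled to equal totals, and *Ramp2* have a point left of 0.

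The largest change belonged to *Lyve1* (ENSMUSG00000030787, mm10 chromosome 7, 110850607 to 110863239), the hyaluronan receptor used to mark lymphatic vessels. Its normalised count ran from 154 to 431 in iCreb5 (median 188) and from 11.2 to 56.2 in tdTomato (median 23.1). Every iCreb5 library lay above every tdTomato library. The geometric mean was 8.40-fold higher in iCreb5, on the log2(value + 1) scale on which all folds are given (log2 change 3.07 ± 0.36 (SE), adjusted p = 6.31e-05). The change was 2.79 within litter 3 and 3.35 within litters 4 to 6, with adjusted p of 0.018 and 0.00174 by limma. Litters 4, 5 and 6 had log2 differences of 3.07, 3.07 and 3.90 for *Lyve1*. In litter 5 the vessel genes had a median of 0.00, with 17 of the 34 higher, and the leukocyte markers described below a median of 2.80. Whether the *Lyve1* transcripts came from endothelium or from macrophages was not tested.

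*Plvap* (ENSMUSG00000034845, chromosome 8, 71497765 to 71511752) encodes the protein of the diaphragms that span fenestrae and caveolae. It ran from 298 to 919 in iCreb5 (median 477) and from 82.7 to 186 in tdTomato (median 129), again with no overlap. It was 3.71-fold higher in iCreb5 (log2 change 1.89 ± 0.27 (SE), adjusted p = 0.000375), with 2.0 in litter 3 and 1.79 in litters 4 to 6. *Nos3*, the endothelial nitric oxide synthase gene, ran from 8.49 to 104 in iCreb5 (median 62.9) and from 9.29 to 22.8 in tdTomato (median 11.7). In 5 of 6 iCreb5 libraries it was above every tdTomato library, and the remaining library, iCreb5 5, was below all of them. Its log2 change was 1.77 (adjusted p = 0.0424), and the call held without iCreb5 5, tdTomato 3c or tdTomato 5b but not when one of the remaining 9 was left out (adjusted p as high as 0.107). *Nos3* shares 1334 exonic bases with overlapping genes, and whether counting used strand is not stated in the labels or notes. *Ecscr*, a regulator of endothelial migration, did not pass the threshold, with means of 189 ± 66.2 in iCreb5 and 150 ± 44.5 in tdTomato (SD, n = 6; log2 change 0.32, 95% interval -0.22 to 0.86, adjusted p = 0.571).

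Among the 9 genes of adhesion and junctions, 5 were higher in iCreb5 and 4 did not pass. *Pecam1* (ENSMUSG00000020717, chromosome 11, 106654217 to 106750628), the platelet and endothelial adhesion molecule gene, ran from 159 to 638 in iCreb5 (median 412) and from 68.0 to 169 in tdTomato (median 97.9). Of the 6 iCreb5 libraries 5 lay above every tdTomato library, and iCreb5 5 lay inside the tdTomato range. *Pecam1* was 3.46-fold higher in iCreb5 (log2 change 1.79 ± 0.31 (SE), adjusted p = 0.00154). It passed in litter 3 taken alone (log2 change 2.16, adjusted p = 0.00278) and in litters 4 to 6 taken alone (1.42, adjusted p = 0.0468). *Icam2* (ENSMUSG00000001029, chromosome 11, 106377656 to 106388075), an integrin ligand of endothelium, ran from 71.3 to 187 in iCreb5 (median 93.0) and from 10.1 to 46.5 in tdTomato (median 27.9). The groups did not overlap, and the gene was 4.21-fold higher in iCreb5 (adjusted p = 0.00249). With *Lyve1* and *Plvap* it was the last of 3 tested vessel genes whose iCreb5 libraries all lay above all tdTomato libraries, which held for 2.83% of all genes tested. For 0 of the 34 did all iCreb5 libraries lie below, as was so for 1.92% of all genes. Within litters 4 to 6 *Icam2* did not pass (log2 change 1.89, adjusted p = 0.0623).

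*Cdh5* (ENSMUSG00000031871, chromosome 8, 104101625 to 104144511) encodes VE-cadherin, the adherens junction protein specific to endothelium. It measured 193, 262, 199, 151, 28.9 and 164 in iCreb5 3a, 3b, 3c, 4a, 5 and 6, and 22.3, 50.4, 57.6, 29.4, 88.2 and 45.5 in tdTomato 3a, 3b, 3c, 4a, 5b and 6d. The order was turned round in litter 5 alone, where the iCreb5 library was the lowest of its group and the tdTomato library the highest of its own. The log2 change was 1.63 ± 0.46 (SE, adjusted p = 0.0444). The call held without iCreb5 5 or tdTomato 5b but not when one of the remaining 10 was left out (adjusted p between 0.0603 and 0.114).

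*Mmrn2*, an extracellular matrix protein gene of endothelium, and *Cd93*, which encodes its receptor, were 2.74-fold and 2.37-fold higher in iCreb5 (adjusted p = 0.0343 and 0.0338). *Mmrn2* ran from 37.3 to 153 in iCreb5 (median 99.1) and from 11.4 to 58.6 in tdTomato (median 37.4). *Cd93* ran from 58.2 to 175 in iCreb5 (median 126) and from 32.1 to 85.5 in tdTomato (median 41.6). Both overlapped between the groups. The *Mmrn2* call held without iCreb5 5 or tdTomato 3a, 3c or 6d, and that of *Cd93* without iCreb5 4a or 5 or tdTomato 3c or 6d. Leaving out one of the remaining 8 took adjusted p as high as 0.0894 for *Mmrn2* and 0.0869 for *Cd93*.

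The tight junction gene *Cldn5* ran from 77.2 to 304 in iCreb5 (median 116) and from 2.79 to 110 in tdTomato (median 49.5). Its change lay within the range of the called genes (log2 1.98, 95% interval 0.61 to 3.36), but the spread was wide and the adjusted p was 0.0874. Without tdTomato 5b it was 0.0415. Because *Cldn5* reached the minimum value through the iCreb5 libraries alone, these adjusted p-values are descriptions. *Esam*, an adhesion molecule gene of tight junctions, had means of 259 ± 120 in iCreb5 and 121 ± 28.0 in tdTomato (SD, n = 6; log2 change 0.98, adjusted p = 0.0535). It passed with litter as a replicate block (adjusted p = 0.0149) and without iCreb5 5 (adjusted p = 0.00653), but not in the block with litter 3 averaged (adjusted p = 0.0626). The remaining adhesion genes had smaller changes and did not pass. *Clec14a*, a C-type lectin gene of tumour and embryonic vessels, was abundant in both groups, at 867 ± 106 in iCreb5 and 665 ± 131 in tdTomato (log2 change 0.40, adjusted p = 0.121, and 0.044 without tdTomato 3c). *Emcn*, a sialomucin gene of venous and capillary endothelium, averaged 204 ± 85.7 in iCreb5 and 183 ± 55.5 in tdTomato (log2 change 0.11, 95% interval -0.45 to 0.67, adjusted p = 0.883).

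**Figure D2:**
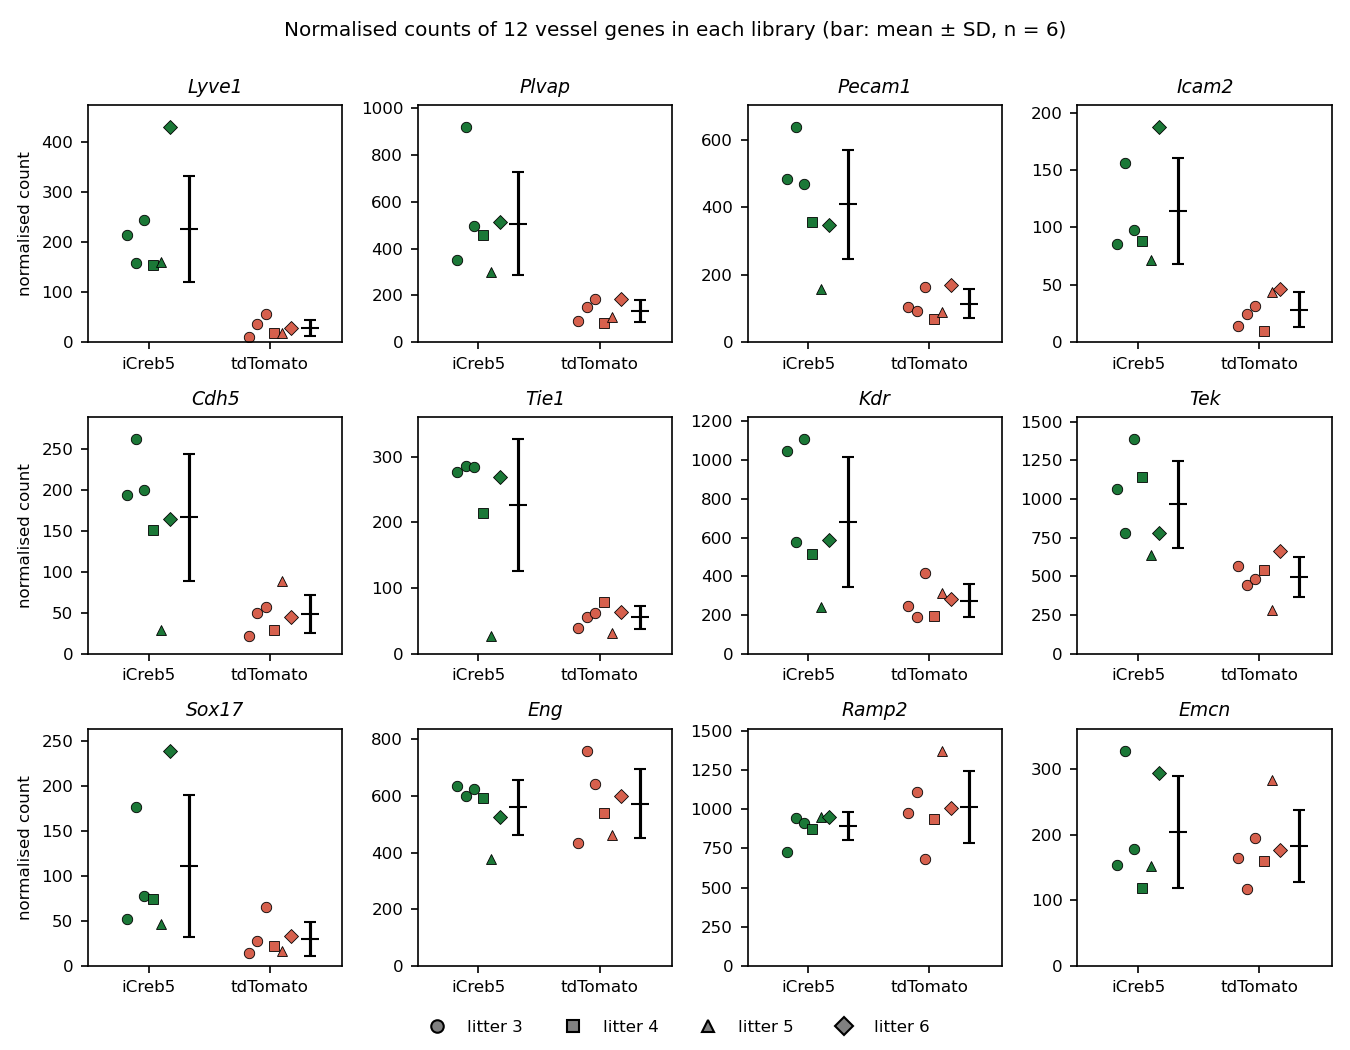
Normalised count of 12 vessel genes in each library, iCreb5 left and tdTomato right, with a marker shape for each litter and bars for mean ± SD (n = 6). *Lyve1*, *Plvap* and *Icam2* show no overlap, the iCreb5 library of litter 5 (triangle) sits at the level of the tdTomato libraries for *Pecam1*, *Cdh5*, *Tie1* and *Kdr*, and *Eng*, *Ramp2* and *Emcn* overlap throughout.

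Of the 9 receptor genes, 5 were higher in iCreb5 and 4 did not pass. *Tek* (ENSMUSG00000006386, chromosome 4, 94739289 to 94874976), the angiopoietin receptor gene, ran from 638 to 1389 in iCreb5 (median 922) and from 281 to 666 in tdTomato (median 514). Only iCreb5 5 fell within the tdTomato range, and the log2 change was 0.95 ± 0.22 (SE, adjusted p = 0.0124). *Tie1*, an orphan receptor gene that acts with Tek, measured 276, 286, 284, 214, 28.0 and 270 in iCreb5 3a, 3b, 3c, 4a, 5 and 6, and 39.1, 56.8, 61.7, 79.0, 31.9 and 64.1 in tdTomato 3a, 3b, 3c, 4a, 5b and 6d. In 5 iCreb5 libraries it was far above all tdTomato libraries, and in iCreb5 5 it was below all of them. The log2 change was 1.76 (adjusted p = 0.0359). It held without iCreb5 5 or tdTomato 4a but not when one of the remaining 10 was left out (adjusted p as high as 0.0885).

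The VEGF receptors differed in whether they passed. *Kdr*, the main signalling receptor of blood vessels (ENSMUSG00000062960, chromosome 5, 75932827 to 75978458), ran from 242 to 1110.03 in iCreb5 (median 583) and from 193 to 417 in tdTomato (median 266). It was 2.28-fold higher in iCreb5 (adjusted p = 0.0298), and its call held without iCreb5 4a or 5 or tdTomato 3c, 5b or 6d but not when one of the remaining 7 was left out (adjusted p as high as 0.0725). *Flt4*, the receptor of lymphatic growth, ran from 25.5 to 113 in iCreb5 (median 77.2) and from 2.79 to 38.1 in tdTomato (median 18.8). Its log2 change was 1.94 (adjusted p = 0.0465), and its call held without iCreb5 4a or 5 or tdTomato 4a or 6d but not when one of the remaining 8 was left out (adjusted p as high as 0.109). *Flt4* reached the minimum value through the iCreb5 libraries alone, so its adjusted p is a description. *Flt1*, a VEGF receptor that also acts as a decoy, ran from 122 to 386 in iCreb5 (median 194) and from 28.7 to 148 in tdTomato (median 134). It did not pass (log2 change 1.0, 95% interval 0.21 to 1.79, adjusted p = 0.141).

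*Aplnr*, the apelin receptor gene, was 2.63-fold higher in iCreb5 (adjusted p = 0.0202), with medians of 301 in iCreb5 and 92.7 in tdTomato. The *Aplnr* call was lost without iCreb5 3b, iCreb5 6 or tdTomato 4a (adjusted p 0.05002 to 0.054). *Robo4*, a guidance receptor gene that stabilises vessels, was listed at 0 in both libraries of litter 5 and measured 81.8, 36.8, 117, 72.2 and 65.8 in the other iCreb5 libraries and 13.96, 13.3, 52.1, 8.27 and 27.0 in the other tdTomato libraries. Over all 12 libraries it did not pass (adjusted p = 0.514). *Eng* and *Ramp2* had the 2 negative changes of the 34, and that of *Eng* was positive (0.037) with libraries rescaled to equal totals. *Eng*, a TGF-beta co-receptor gene, averaged 559 ± 97.8 in iCreb5 and 573 ± 121 in tdTomato (log2 change -0.03, 95% interval -0.38 to 0.32). *Ramp2*, the adrenomedullin co-receptor gene, averaged 894 ± 87.9 in iCreb5 and 1015 ± 228 in tdTomato (log2 change -0.16, 95% interval -0.47 to 0.16). Of the 3301 exonic bases of *Ramp2*, 1103 overlap *Vps25*, so reads of both genes may be mixed.

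Promoter sequence was available for 20 of the 36 genes, with 24 start sites, from RefSeq on GRCm38.p6. Because vessel enhancers are known for ETS factors, and Creb5 belongs to the CREB/ATF family, windows of 250 bases before to 50 bases after the start were searched on both strands for the ETS letters CAGGAA and the cyclic AMP response element TGACGTCA. The 250 bases before the start of *Tek* and *Kdr*, which passed the test, and of *Flt1*, which did not, are shown 5′ to 3′ on the strand of the gene, with matches in capitals. They are chr4:94739039-94739288 (plus strand) for *Tek*, chr5:75978456-75978705 (minus strand) for *Kdr* and chr5:147726012-147726261 (minus strand) for *Flt1*.
Tek: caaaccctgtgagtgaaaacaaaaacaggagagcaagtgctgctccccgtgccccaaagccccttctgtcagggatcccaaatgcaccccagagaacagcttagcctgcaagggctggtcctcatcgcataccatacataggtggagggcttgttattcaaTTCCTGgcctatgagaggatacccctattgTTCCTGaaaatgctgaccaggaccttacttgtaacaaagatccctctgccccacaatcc
Kdr: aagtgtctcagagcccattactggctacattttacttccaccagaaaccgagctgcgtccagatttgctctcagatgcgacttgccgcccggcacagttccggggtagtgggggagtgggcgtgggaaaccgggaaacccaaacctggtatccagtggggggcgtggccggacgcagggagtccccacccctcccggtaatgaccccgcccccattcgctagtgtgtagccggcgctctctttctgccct
Flt1: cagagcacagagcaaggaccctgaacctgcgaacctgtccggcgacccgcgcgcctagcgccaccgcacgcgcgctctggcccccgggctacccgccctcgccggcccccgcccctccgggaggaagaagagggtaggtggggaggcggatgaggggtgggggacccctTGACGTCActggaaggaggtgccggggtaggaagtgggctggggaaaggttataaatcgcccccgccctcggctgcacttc
The *Tek* promoter holds 2 ETS matches, both as the reverse complement TTCCTG, starting 89 and 59 bases before the start. The *Kdr* promoter holds none of these letters in this window. The *Flt1* promoter holds 1 match to TGACGTCA, starting 81 bases before the start, and *Flt1* was the only gene of the 20 with one, where 1.79% of all 32851 promoters of the table hold one. The ETS letters were found in 13 of the 24 promoters, against 30.6% of all promoters. They were in 2 of 4 matched genes higher in iCreb5, *Tek* and *Tie1*, and in 9 of 14 matched genes that did not pass. The letters AACAAT of SOX factors, AGATAA of GATA factors and TGACTCA of AP-1 were in 2, 2 and 1 of the 24 promoters, against 10.7%, 11.2% and 5.20% of all promoters.

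None of the 4 genes of vessel ligands and secreted proteins passed by limma, edgeR or DESeq2, and their median log2 change was 0.52. At an unadjusted p under 0.05, 2 were higher, *Egfl7* and *Esm1* (share of all genes not given). Both *Esm1* and *Vwf* reached the minimum value through the iCreb5 libraries alone, so their p-values are descriptions. *Apln*, the ligand of Aplnr, averaged 209 ± 26.4 in iCreb5 and 192 ± 35.0 in tdTomato (log2 change 0.13, 95% interval -0.21 to 0.47, adjusted p = 0.749). *Egfl7*, a secreted angiogenic factor gene, averaged 555 ± 78.7 in iCreb5 and 415 ± 95.5 in tdTomato (log2 change 0.44, adjusted p = 0.149). *Esm1*, a secreted proteoglycan gene of tip cells, had medians of 56.8 in iCreb5 and 31.5 in tdTomato (log2 change 1.13, adjusted p = 0.206). *Vwf*, the von Willebrand factor gene of mature endothelium and megakaryocytes, was weakly expressed in both groups, with medians of 23.4 in iCreb5 and 17.2 in tdTomato (limma adjusted p = 0.674).

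None of the 4 arterial or Notch genes passed by limma either, and their median log2 change was 1.22. By edgeR and DESeq2 1 of them, *Gja5*, passed (adjusted p = 0.0354 and 0.00326). *Gja5*, which encodes connexin 40 of arterial endothelium, ran from 11.0 to 160 in iCreb5 (median 78.8) and from 9.13 to 32.1 in tdTomato (median 21.7). Its limma adjusted p was 0.126, beside 0.021 with litter as a replicate block, 0.193 in the block with litter 3 averaged and 0.00906 without iCreb5 5. *Dll4*, a Notch ligand gene of arteries and tip cells, had medians of 34.7 in iCreb5 and 9.30 in tdTomato. Its log2 change was 1.94 with an adjusted p of 0.127, and 0.04999, just past the threshold, without tdTomato 4a. For the other genes of this group the log2 changes were smaller. *Notch4* had 0.89 (adjusted p = 0.248) and *Gja4*, the gene of connexin 37, had 0.07 (95% interval -0.87 to 1.02, adjusted p = 0.957). Both *Gja5* and *Dll4* reached the minimum value through the iCreb5 libraries alone, so their adjusted p-values are descriptions.

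Of the 6 transcription factor genes 4 were tested and 2 passed. *Sox17*, needed for arterial identity, ran from 46.7 to 239 in iCreb5 (median 75.9) and from 13.96 to 65.8 in tdTomato (median 24.6). *Sox7*, its relative, ran from 50.1 to 196 in iCreb5 (median 125) and from 19.5 to 74.4 in tdTomato (median 46.2). The groups overlapped for both, and they were 3.42-fold and 2.63-fold higher in iCreb5 (adjusted p = 0.022 and 0.0226). *Sox17* lost its call without iCreb5 3b, iCreb5 6 or tdTomato 3a (adjusted p up to 0.0606), and *Sox7* without iCreb5 3b, 3c, 4a or 6 (up to 0.0612). *Sox17* shares 804 exonic bases with the overlapping *Gm37587*. *Sox18* averaged 130 ± 50.6 in iCreb5 and 80.7 ± 12.2 in tdTomato (log2 change 0.60, adjusted p = 0.235, and 0.0468 without iCreb5 5). *Prox1*, the regulator of lymphatic fate, averaged 61.3 ± 32.9 in iCreb5 and 63.1 ± 46.4 in tdTomato (log2 change 0.05, 95% interval -0.85 to 0.95). Of 8 lymphatic markers examined together, *Lyve1* and *Flt4* were the 2 that passed. Some tissue macrophages also make *Lyve1*, and *Flt4* reached the minimum value through the iCreb5 libraries alone. *Tal1* and *Lyl1*, regulators of blood and endothelial precursors, did not reach the minimum value. *Tal1* had 26 reads over all iCreb5 libraries and 16 over all tdTomato libraries, and *Lyl1* had 43 and 15.

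**Figure D3:**
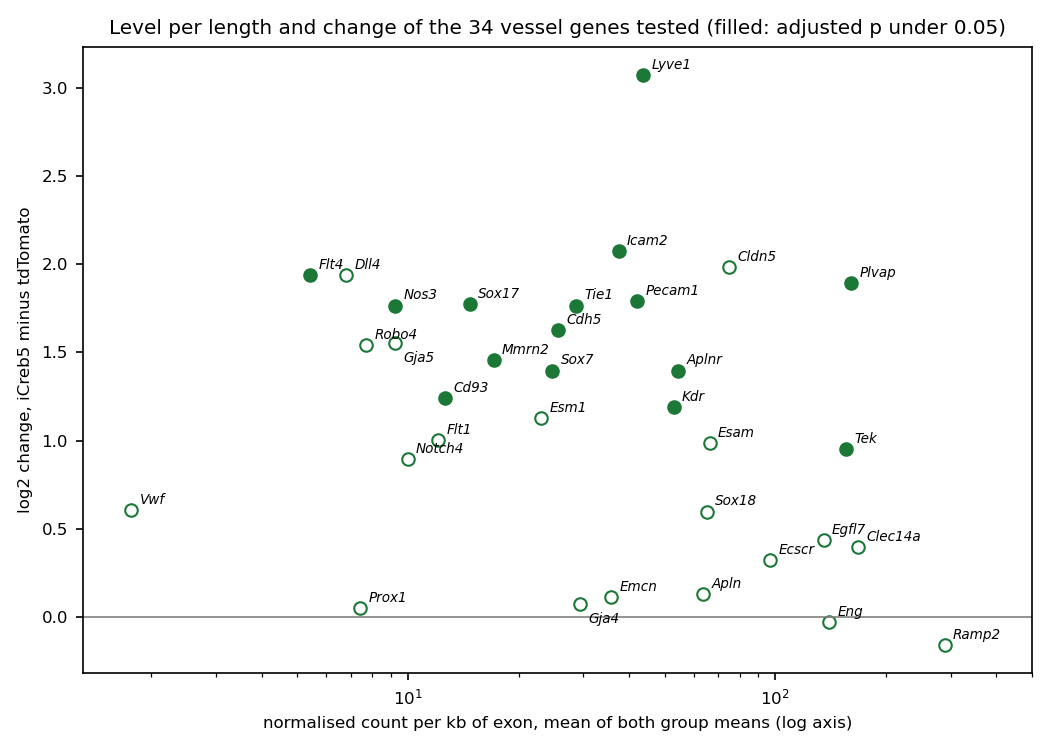
Log2 change (iCreb5 minus tdTomato) of the 34 tested vessel genes against their level, the normalised count per kb of exon (log axis); filled points passed the test. Filled points occur at high and at low levels, 7 of the 17 genes of higher level and 8 of the 17 of lower level, and *Ramp2*, the most abundant, lies just under 0.

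Levels per length differed widely among the tested genes. *Ramp2* led with 271 normalised counts per kb in iCreb5 and 308 in tdTomato, and *Vwf* was lowest with 2.09 in iCreb5 and 1.44 in tdTomato. *Plvap* stood at 255 per kb in iCreb5 and 67.2 in tdTomato, and *Tek* at 205 in iCreb5 and 106 in tdTomato. The 17 genes of higher level had 7 called genes and a median log2 change of 0.95, and the 17 of lower level had 8 and 1.46. Of the 34 tested genes, 26 met the minimum of 10 in 6 libraries in each group. *Cldn5*, *Flt4*, *Esm1*, *Vwf*, *Dll4* and *Gja5* met it through the iCreb5 libraries alone, where they were higher, and 1 of these 6, *Flt4*, is among the 15 called. With a mean value of at least 10 over all libraries as the filter instead, the same 15 genes were called.

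Many vessel genes varied together between libraries, in large part through 1 library. Over the 12 libraries, each centred on its group mean, the 34 genes had a median correlation of 0.688 with the mean of all 34, of which each is part, from -0.292 for *Ramp2* to 0.937 for *Aplnr*, beside a median of 0.028 for all genes. That mean stood at -1.10 in iCreb5 5 and between -0.45 and 0.52 in the other libraries, so the correlations lean on iCreb5 5. One library stood apart from its group: iCreb5 5 was the lowest iCreb5 library for 27 of the 34 genes, with a median of -0.91 on the log2 scale from the group mean. The highest was iCreb5 3b for 18 genes (median 0.69), and among tdTomato libraries 3a was lowest for 12. Summed over all 36 genes, normalised counts were 9146, 11076, 10159, 8057, 5629 and 9446 in iCreb5 3a, 3b, 3c, 4a, 5 and 6. They were 4590, 5282, 5778, 4710, 5570 and 6035 in tdTomato 3a, 3b, 3c, 4a, 5b and 6d. So 5 iCreb5 libraries lay above every tdTomato library, and iCreb5 5 lay among them. Of genes outside the list, those nearest to this centred pattern were *Prox2* (r = 0.917), *Corin* (0.907) and *Plekhh3* (0.904), and none of the 10 nearest passed the test between groups. All 10 had an r of at least 0.869. They were picked for the highest r outside the list, so their r cannot be set against the vessel gene median. Whether the pattern was particular to vessel genes was not tested.

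Set litter by litter, the vessel genes as a group were higher in iCreb5 in litters 3, 4 and 6 and centred on no difference in litter 5. Of the 34 genes, 33 were higher in the iCreb5 libraries of litter 3 (median log2 difference 1.69), 29 in that of litter 4 (0.94), 17 in that of litter 5 (0.00) and 29 in that of litter 6 (0.99). Among all genes tested the shares with a positive difference were 52.5%, 49.5%, 46.05% and 51.4%. Within litter 3 alone 14 vessel genes were called higher, beside 2.36% of all genes. Within litters 4 to 6 alone, with litter as a term, *Lyve1*, *Plvap*, *Pecam1* and *Sox17* were called, beside 1.91% of all genes. A test of whether the change differed between litter 3 and litters 4 to 6 called 0 of the 34 vessel genes and 0% of all genes (limma interaction). At an unadjusted p under 0.05 it took in 3 of the 34, *Flt4*, *Tie1* and *Gja5*, and 8.96% of all genes. A test for differences between the 4 litters regardless of transgene called 1 vessel gene, *Robo4* (adjusted p = 0.0202), beside 1.78% of all genes, and it lost the call without iCreb5 3a or iCreb5 5.

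**Figure D4:**
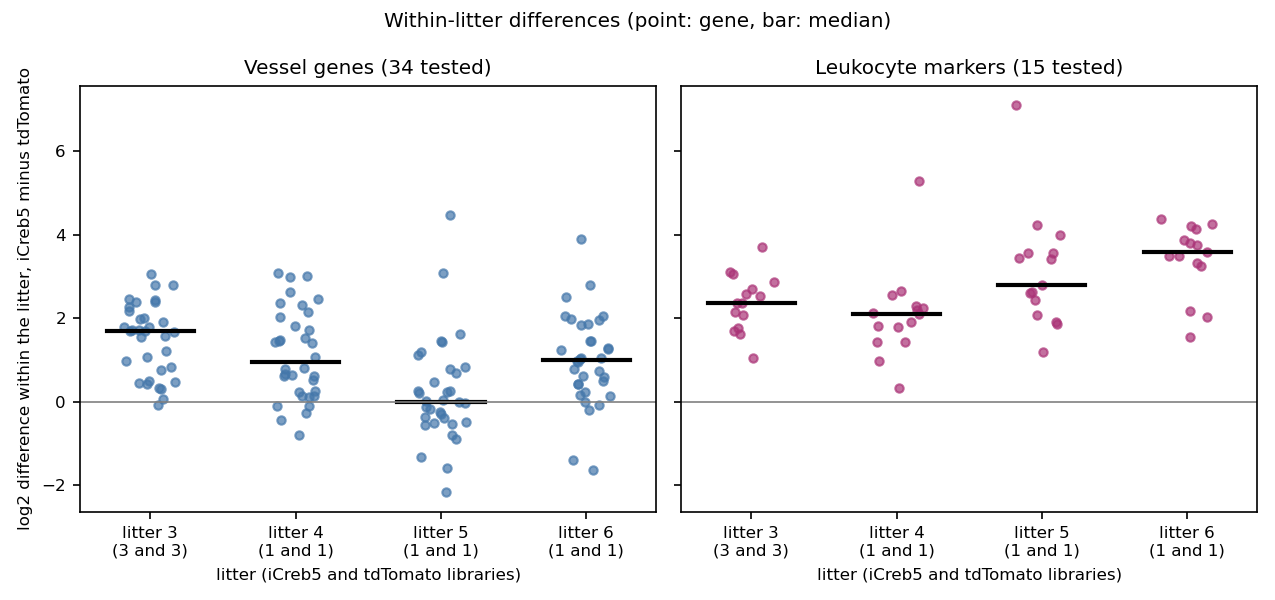
Log2 difference between iCreb5 and tdTomato within each litter, for the 34 vessel genes tested and the 15 leukocyte markers tested; each point is a gene and the bar is the median. The vessel genes centre on 0.00 in litter 5 and above 0.9 in the other litters, whereas leukocyte markers are above 0 in all 4.

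Markers of other cells were measured in the same libraries, and leukocyte markers, like the vessel genes as a group, were higher in iCreb5. All 15 tested leukocyte and macrophage markers were higher in iCreb5, with a median log2 change of 2.58. The list summed to between 3329 and 14179 normalised counts in iCreb5 and between 1107 and 1661 in tdTomato. *Mrc1*, the mannose receptor gene of tissue macrophages, averaged 289 ± 151 in iCreb5 and 32.2 ± 15.7 in tdTomato (adjusted p = 0.000156). *Ptprc*, which encodes the pan-leukocyte protein CD45, was listed at 0 in tdTomato 3a, 4a and 5b and ran from 10.3 to 241 in iCreb5. It reached the minimum value through the iCreb5 libraries alone, so its adjusted p of 0.00483 is a description. The same order of libraries did not hold for both lists: in iCreb5 5, where the vessel sum was the lowest of its group, the leukocyte sum was 8801, second to iCreb5 6. Within litter 5 the leukocyte markers had a median log2 difference of 2.80, beside 0.00 for the vessel genes. The part of leukocyte transcripts in the vessel gene values was not tested.

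**Figure D5:**
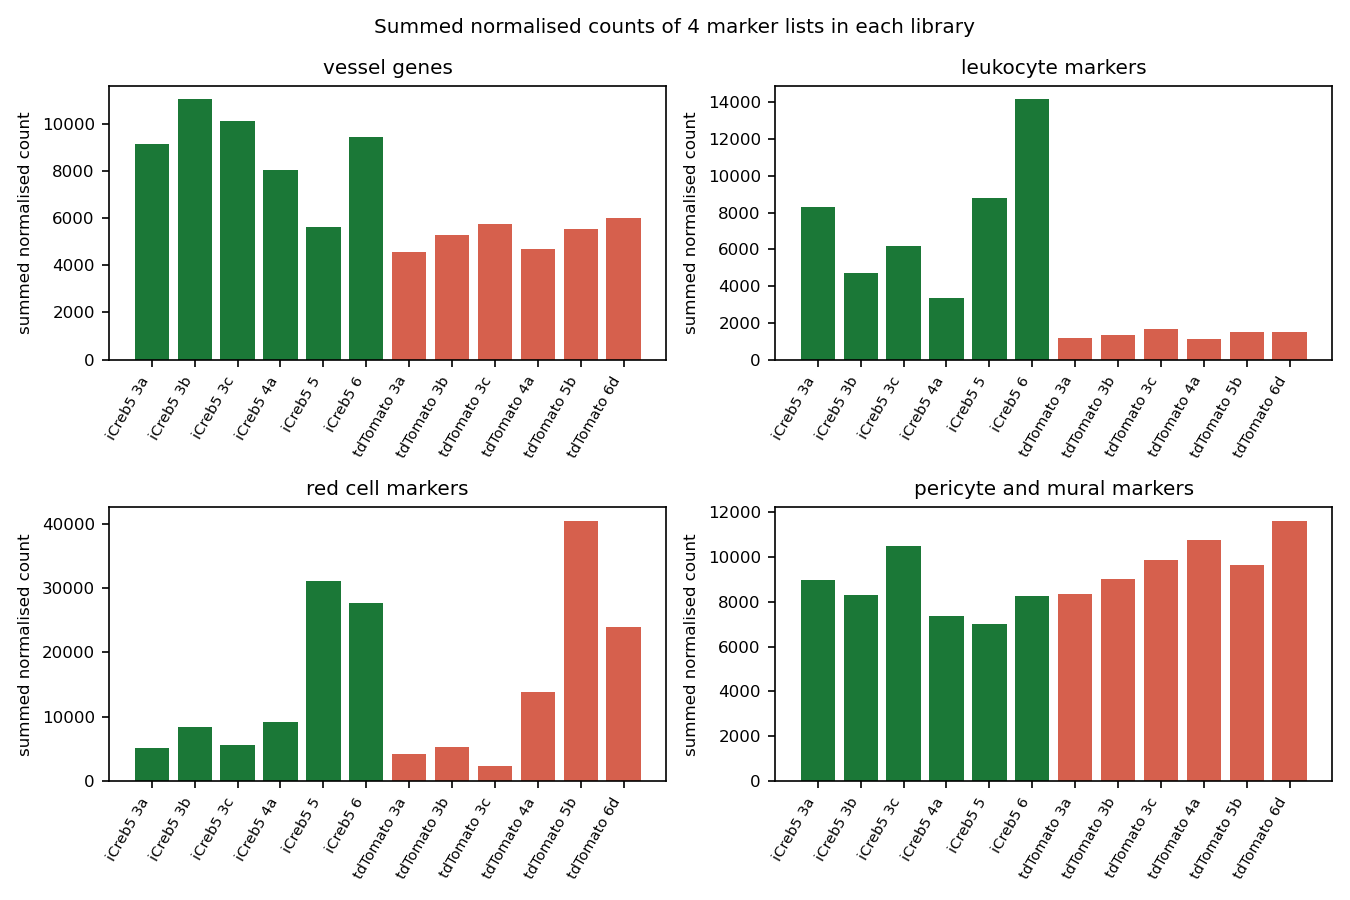
Summed normalised counts of vessel genes, leukocyte markers, red cell markers, and pericyte and mural markers in each library, iCreb5 left and tdTomato right. Leukocyte sums are higher in every iCreb5 library than in any tdTomato library, vessel sums in all but iCreb5 5, and red cell sums are highest in litters 5 and 6 of both groups.

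Red cell markers varied with litter, and 5 of the 8 tested differed between litters (limma), beside 1.78% of all genes. The count over all genes in that test ran from 13 to 1416 with each library left out. Red cell markers summed to between 5118 and 31098 in iCreb5 and between 2404 and 40472 in tdTomato. The sums were highest in litters 5 and 6, which hold 1 library of each group. None of the 8 tested passed between groups by limma, edgeR or DESeq2, or at an unadjusted p under 0.05. Pericytes and smooth muscle cells wrap vessels from outside, and 13 of their markers were tested. The smooth muscle gene *Cnn1* was 2.10-fold higher in iCreb5 (adjusted p = 0.00477). The pericyte genes *Cspg4* and *Ndufa4l2* were lower in iCreb5 (log2 change -1.03 and -1.08, adjusted p = 0.00119 and 0.0016), and 10 did not pass. The list's median log2 change was -0.09. Of 5 tested megakaryocyte and platelet markers *Pf4*, which macrophages also make, was higher (adjusted p = 0.000175) and *Nrgn* lower (adjusted p = 0.0296, lost without iCreb5 3a, 3b or 6 or tdTomato 3b, 4a, 5b or 6d). Of 8 epidermal markers *Krt8* was lower (adjusted p = 0.0235, lost without iCreb5 3a or 3c or tdTomato 3c or 4a), and of 10 skeletal muscle markers none passed by limma, edgeR or DESeq2 or at an unadjusted p under 0.05, while *Acta1* (log2 change 0.98) passed with litter as a replicate block (adjusted p = 0.036).

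Further endothelial genes outside the 36 were examined next. Among 27 tested, 5 calls were rises and 1 was a fall, and 21 missed the threshold, with a median log2 change of 0.72. Their median log2 difference was 1.03 in litter 3 but 0.07, -0.12 and 0.20 in litters 4, 5 and 6. In litters 3, 4, 5 and 6, 23, 15, 11 and 18 of the 27 were higher in iCreb5. With litter as a replicate block 6 were higher and 2 lower, by edgeR 5 and 2, and by DESeq2 7 and 2. The gene *Erg*, an ETS factor of endothelium and cartilage, missed the threshold by limma (log2 change -0.62, adjusted p = 0.0557) and was lower by edgeR (0.0445), by DESeq2 (0.00817), with the block (0.0476) and within litters 4 to 6 (0.0404). It was also lower without iCreb5 5, tdTomato 3a or tdTomato 3b, and *She* was the gene added as higher by the block (0.0455). *Adgrl4*, an adhesion receptor gene of vessel sprouts, averaged 100.2 ± 49.7 in iCreb5 and 12.6 ± 8.80 in tdTomato (log2 change 2.98, adjusted p = 0.00081), with no overlap. *Gpihbp1*, which carries lipoprotein lipase across capillary endothelium, averaged 83.2 ± 24.4 in iCreb5 and 18.1 ± 5.49 in tdTomato (log2 change 2.14, adjusted p = 0.000151), also with no overlap. *Myct1* had a log2 change of 1.87 (adjusted p = 0.0205, and 0.0503 without iCreb5 3b). *Adgrl4* and *Myct1* reached the minimum value through the iCreb5 libraries alone. The other calls, named after their values were seen, were the junction regulator *Rasip1* (1.03, adjusted p = 0.00943; 1374 of its 3202 exonic bases overlap other genes), the transcription factor gene *Gata2* (0.81, adjusted p = 0.0335) and, in the other direction, *Exoc3l2* (-0.98, adjusted p = 0.0343). *Gata2* lost its call without iCreb5 3a, 3c, 4a or 6 or tdTomato 3b or 3c (up to 0.0747), and *Exoc3l2* held only without iCreb5 3b, 5 or 6 or tdTomato 4a (otherwise up to 0.0849).

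None of the 21 tested genes of vessel growth ligands and co-receptors was higher or lower by limma, and their median log2 change was -0.06. At an unadjusted p under 0.05, 1 was higher and 3 were lower (share of all genes not given). DESeq2 called 1 higher and 1 lower, and limma on libraries rescaled to equal totals called 1 higher. *Vegfa*, the ligand of Kdr and Flt1, chosen after its values were seen, averaged 2839.5 ± 485 in iCreb5 and 2985 ± 580 in tdTomato (log2 change -0.06, adjusted p = 0.88). *Cxcl12*, the most abundant of the list, averaged 5989.6 ± 1003 in iCreb5 and 7731 ± 1229 in tdTomato (log2 change -0.37, adjusted p = 0.113).

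Among 18 other transcription factors and targets of vessel development, 3 calls were rises and 1 was a fall, and 14 missed the threshold, with a median log2 change of -0.18. *Etv2*, an ETS factor gene that starts the endothelial and blood programme in the early embryo, was the strongest. It measured 16.0, 18.4, 28.3, 40.9, 33.9 and 29.6 in iCreb5 3a, 3b, 3c, 4a, 5 and 6, and 2.79, 1.98, 2.74, 0.919, 6.09 and 1.86 in tdTomato 3a, 3b, 3c, 4a, 5b and 6d. The groups did not overlap, litter 5 included, and the log2 change was 3.00, a size that depends on the added 1 (adjusted p = 0.000363). The tdTomato values stood close to or below the value of 3 reads, and *Etv2* reached the minimum through the iCreb5 libraries alone, so it could be tested only because it was high there. *Gata3* was 2.19-fold higher (adjusted p = 0.00591), and *Lmo2*, a partner of Tal1 and Lyl1, was 2.01-fold higher, with means of 234 ± 45.0 in iCreb5 and 115 ± 12.1 in tdTomato (SD, adjusted p = 0.00114). *Mef2c* was lower (log2 change -0.55, adjusted p = 0.0392), and its call held only without iCreb5 3a or 3c or tdTomato 3b (otherwise up to 0.0923) and was lost with libraries rescaled to equal totals. With litter as a replicate block the Notch target *Hes1* was also lower (log2 change -0.54, adjusted p = 0.0171).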

How the data were processed

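RNA sequencing of sorted E14.5 limb cells gave 12 libraries, 6 per group, assigned to group and litter from titles and batch labels. The labels give 4 litters, while the design text speaks of 6. Per the submitters' processing notes, FastQC, STAR, Salmon, DESeq2 and the genome build mm10 were used, with no version or role given for the tools. The sources used here do not give how bovine Creb5 reads were assigned. The deposited table holds normalised signal, judged from its values to be counts per gene scaled by 1 factor per library: 100% of values were whole multiples of 1 unit within a tolerance of 1e-06, so whole reads were recovered. Also deposited is a P0 table, whose 8 columns fit the labels of no sample and were not used.

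The 36 vessel genes and the other lists were chosen with earlier results of these data known. The comparison used limma 3.58.1 under R 4.3.3 (trend, two-sided, no covariate) on log2(value + 1) over the 16733 genes that reached a value of 10 in 6 or more libraries, with Benjamini-Hochberg adjustment over all of them and a threshold of 0.05. The added 1 understates changes of weakly expressed genes. The values are normalised, so the count tests, edgeR 4.0.16 (quasi-likelihood) and DESeq2 1.42.0 on recovered reads, were alternatives, and called 641 and 922 genes higher and 471 and 715 lower, beside 648 and 477 by limma. Other alternatives changed the filter, the pseudocount and the library scaling, used litter as a replicate block, took litter 3 or litters 4 to 6 alone, or left out libraries. The litter label pairs the libraries of litters 4, 5 and 6, while those of litter 3 were matched here by title letter alone. Over all genes, deviations of libraries matched in this way from their group means correlated at 0.112 (3a), 0.0662 (3b), 0.136 (3c), 0.153 (4a), 0.346 (litter 5) and 0.000309 (litter 6). Depth of 9.02 to 53.3 M reads limits precision through counting error, with 3 reads worth up to 8.38 units. The scripts were tested on simulated data. Genes named outside the 36 are up to 3 called genes of each list with the largest change, up to 2 of the most abundant, and the 10 nearest in pattern, with exceptions stated, and *Erg*, *She*, *Hes1*, *Acta1* and *Msx1*, named after their values were seen. Gene positions are from GENCODE M21 on GRCm38 (mm10). Python 3.11.15 with pandas 2.3.3 and matplotlib 3.10.9 made tables and figures.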

Additional observations from a re-analysis of the deposited data

Results flagged for a closer look

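In 5 of 72 groups of 6 libraries (36 genes in 2 groups), 1 library lay far from the others by Dixon's test at the 95% level, which chance alone gives in about 1 in 20 groups. The receptor gene *Tie1* measured 28.0 in iCreb5 5, while the other iCreb5 libraries lay between 214 and 286. *Plvap*, of fenestral diaphragms, measured 919 in iCreb5 3b, while the others lay between 298 and 511. *Lyve1*, the hyaluronan receptor gene, measured 431 in iCreb5 6, against 154 to 244 in the others, and iCreb5 6 also had the highest sum of leukocyte markers. Whether the *Lyve1* value and that sum are linked was not tested. The co-receptor gene *Ramp2* measured 726 in iCreb5 3a, against 875 to 954 in the others. The lymphatic regulator *Prox1* measured 151 in tdTomato 6d, while the other tdTomato libraries lay between 28.8 and 69.8. *Lyve1* and *Plvap* were past the limma threshold with or without these libraries.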

How the results depend on the processing

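Of 1612 combinations of a named gene and an alternative setting, 1344 kept the direction and the side of the threshold, 193 lost a call, 43 gained one and 32 changed sign. The count of 15 vessel genes higher in iCreb5 became 8 with no filter beyond a value above 0, 8 with litter as a replicate block and litter 3 averaged, 4 within litters 4 to 6 alone, 7 without tdTomato 3a and 5b (chosen after the data were seen), and 5 to 18 when each library was left out in turn. Chosen likewise after the data were seen, it was 19 without iCreb5 5 and tdTomato 5b and 17 without iCreb5 5 and 6. Over all genes tested, those called higher in these settings, in order, numbered 556, 511, 320, 555, 484 to 705, 731 and 646, beside 648. With litter as a replicate block 728 genes were lower, beside 477, and the block added *Esam* and *Gja5* to the vessel genes called and lost none, whereas with litter 3 averaged it called neither and kept 8 of the 15. Litter 3 alone gave 395 higher and 292 lower, with a vessel gene median of 1.69, and litters 4 to 6 gave 320 higher and 368 lower, with a median of 0.76. Libraries rescaled to equal totals gave 799 higher and 382 lower. Genes differing between litters, 298, became 27 with no filter, 479 with equal totals and 13 to 1416 with each library left out, and the vessel genes among them, 1, became 0 with no filter, 0 with a pseudocount of 8 and 0 to 1 with each library left out.

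Signs changed for genes that had not passed. With litter 3 averaged in the block and within litters 4 to 6, *Emcn* had a log2 change of -0.043 and -0.20, *Gja4* -0.30 and -0.68, *Prox1* -0.30 and -0.66, and *Vegfa* 0.032 and 0.13. *Apln* had -0.050 within litters 4 to 6. *Eng* had 0.037 and *Vegfa* 0.0038 with equal totals, and *Eng* 0.058 in litter 3, 0.023 without iCreb5 5 and tdTomato 5b, and 0.12 without iCreb5 5 and 6. *Prox1* had -0.035 by edgeR and -0.039 by DESeq2, and *Gja4* -0.057 without tdTomato 3a and 5b. With each library left out, *Emcn* ran from -0.045 to 0.25, *Eng* from -0.11 to 0.080, *Gja4* from -0.22 to 0.42 and *Prox1* from -0.17 to 0.35. The cause of these changes was not tested. At 9.02 M reads tdTomato 3a limits weakly expressed genes most, where 1 read is worth 2.79 units.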
